A study of Mus musculus with 7 samples.

Results

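The regenerating islet-derived (Reg) family was examined in pancreatic islets of mice bred for deletion of Wnt4 in their β-cells and of control mice. Its members were taken as the 7 genes Reg1, Reg2, Reg3a, Reg3b, Reg3g, Reg3d and Reg4, of 22911 gene symbols that could be given to probes of the array, and every probe whose accession mapped to one of them was kept, which gave 8 probes. The arrays were Agilent single-colour oligonucleotide arrays, whose probes are short DNA strands, each complementary to a stretch of 1 transcript. Donor mice of the 4 Wnt4βKO samples had the genotype Pdx1CreER Tg+; Wnt4 fl/fl, and those of the 3 control samples Pdx1CreER Tg-; Wnt4 fl/fl. All of these mice carried floxed Wnt4 alleles, had been crossed to C57BL/6J, were kept under SPF conditions and received tamoxifen by gavage at 4 to 5 weeks of age, and islets were taken at 7 weeks, from males per the study's methods. The Cre recombinase is driven by the Pdx1 promoter, which is active in β-cells. Since the control mice carried no Cre, loss of Wnt4 and the presence of an active Cre cannot be told apart. The labels do not say that a sample pooled animals, and p-values below measure the spread between these 7 samples.

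Reg genes encode small secreted proteins with a C-type lectin fold. They were named for their appearance in regenerating islets, yet in the healthy adult pancreas the acinar cells, which make the digestive enzymes, are their main source, and several of them behave as acute-phase genes of the exocrine pancreas that are induced through IL-6 family cytokines and STAT3 when the tissue is inflamed or injured. Reg1 is known as pancreatic stone protein or lithostathine, Reg3b as pancreatitis-associated protein, and Reg3g as an antibacterial lectin of the gut. Islets are freed from the pancreas by collagenase and picked by hand, so some acinar RNA is carried into such preparations. In a sample of mixed cells, fewer cells of a type and less RNA per cell cannot be told apart.

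In the RefSeq annotation of GRCm38.p6, 6 of the 7 genes lie side by side on chromosome 6 in the order Reg3b, Reg3d, Reg3a, Reg2, Reg1 and Reg3g, with a single pseudogene, Gm52853, among them, and Reg4 lies on chromosome 3. The 250 bases before the start of each of the 6 clustered genes are shown because these genes varied together over the arrays, in different combinations. They are written 5′ to 3′ along the gene from the RefSeq promoter table of GRCm38.p6, with 4 motifs, found on either strand, in capitals. CACCTG is a form of the E-box, the element bound by acinar transcription factors such as PTF1A and MIST1, and TTCCCA is the core bound by RBPJ and RBPJL. TTCNNNGAA is the core of STAT sites and TATAAA the TATA box.
Reg1 (chr6:78425733-78425982, strand plus): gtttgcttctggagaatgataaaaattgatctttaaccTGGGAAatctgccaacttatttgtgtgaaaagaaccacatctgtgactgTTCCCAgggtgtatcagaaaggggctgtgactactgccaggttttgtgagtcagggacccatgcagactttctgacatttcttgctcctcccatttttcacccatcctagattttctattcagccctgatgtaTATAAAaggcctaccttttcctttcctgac
Reg2 (chr6:78404905-78405154, strand plus): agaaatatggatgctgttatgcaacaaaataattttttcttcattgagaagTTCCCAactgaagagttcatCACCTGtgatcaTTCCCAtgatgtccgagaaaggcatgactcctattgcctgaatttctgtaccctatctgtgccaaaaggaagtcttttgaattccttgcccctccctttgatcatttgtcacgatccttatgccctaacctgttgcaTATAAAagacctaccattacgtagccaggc
Reg3d (chr6:78378866-78379115, strand minus): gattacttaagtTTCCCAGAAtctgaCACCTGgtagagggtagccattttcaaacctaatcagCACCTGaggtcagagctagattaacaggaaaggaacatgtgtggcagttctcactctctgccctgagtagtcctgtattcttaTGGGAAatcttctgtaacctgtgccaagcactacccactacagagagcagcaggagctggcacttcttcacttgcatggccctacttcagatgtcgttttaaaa
Reg3a (chr6:78380459-78380708, strand plus): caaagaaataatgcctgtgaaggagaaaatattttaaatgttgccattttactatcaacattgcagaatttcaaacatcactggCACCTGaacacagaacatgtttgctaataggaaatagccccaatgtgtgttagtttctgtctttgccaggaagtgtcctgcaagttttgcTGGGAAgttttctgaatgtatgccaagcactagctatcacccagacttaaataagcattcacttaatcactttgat
Reg3b (chr6:78370635-78370884, strand plus): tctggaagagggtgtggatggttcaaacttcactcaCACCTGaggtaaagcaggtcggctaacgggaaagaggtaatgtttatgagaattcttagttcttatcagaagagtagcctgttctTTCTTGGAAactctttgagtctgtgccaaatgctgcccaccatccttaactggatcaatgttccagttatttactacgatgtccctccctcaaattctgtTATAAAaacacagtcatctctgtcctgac
Reg3g (chr6:78468875-78469124, strand minus): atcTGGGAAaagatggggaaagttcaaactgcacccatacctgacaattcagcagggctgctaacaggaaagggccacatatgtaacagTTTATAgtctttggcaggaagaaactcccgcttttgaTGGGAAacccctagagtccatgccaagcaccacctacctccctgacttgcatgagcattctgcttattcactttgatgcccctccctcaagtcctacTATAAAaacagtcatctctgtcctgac
TATAAA lay at position -30 in Reg1 and in Reg2, -29 in Reg3b and -27 in Reg3g, counted from its leftmost base to the start of the gene, and no match was found in this window in Reg3a, Reg3d and Reg4. It was present in 4 of the 7 Reg promoters, against 12.4% of the 32851 promoters in the table. CACCTG was present in 5 of the 7, against 17.2% of all promoters. Of the 7, it was missing from Reg1 and Reg3g. TTCCCA was also present in 5 of the 7, against 21.6%, and occurred in Reg1, Reg2, Reg3a, Reg3g and Reg3d. TTCNNNGAA was found in Reg3b and Reg3d, 2 of the 7, against 7.02%, and in Reg3d it overlaps a TTCCCA. The wider E-box CANNTG, which contains CACCTG and is not in capitals, was present in all 7 Reg promoters and in 66.2% of all promoters. A match describes letters and does not show that a factor binds there.

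All 7 probes of Reg1, Reg2, Reg3a, Reg3b, Reg3g and Reg3d were well above background on all 7 arrays. Values below are log2 signals after quantile normalization, which gives every array the same distribution of signals, and a difference of 1 on this scale is a doubling. For the Reg4 probe (A_52_P257758) the number of arrays well above background was 0. Its normalized values lay between 5.76 and 5.86, and its spot was dimmer than the local background on each array, so Reg4 was not tested. Levels of different probes are not set against each other, because probes differ in how well they bind their transcript.

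The arrays themselves were alike. Pearson's r between pairs of arrays across probes, which are not independent replicates, was between 0.962 and 0.984, between 45.5% and 49.0% of spots were well above background, and all 7 arrays came from 1 slide and 1 scan. Wnt4, the targeted gene, had mean log2 signals of 11.51 ± 0.31 (SD) over the 3 control arrays and 11.01 ± 0.22 (SD) over the 4 Wnt4βKO arrays, a difference of -0.49 ± 0.17 (SE) with an unadjusted limma p of 0.0237 and an adjusted p of 0.651. The groups overlapped, with Wnt4βKO replicate 1 at 11.32 above control replicate 3 at 11.17. Where its probe lies relative to the deleted part was not determined. All 16 β-cell markers and all 11 markers of other endocrine cells on the lists were measurable. So were 35 of 40 listed acinar genes, so being measurable does not by itself set islets apart from other pancreas tissue.

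The clearest feature of the Reg genes was how much they varied from sample to sample. Reg3a (A_51_P267969), which encodes a secreted lectin made by acinar cells, had log2 signals of 7.00 in control replicate 2, 10.31 in control replicate 3 and 12.34 in control replicate 4. In Wnt4βKO replicates 1 to 4 its signals were 6.43, 8.71, 8.41 and 8.64. Control replicate 2 lay below 3 of the 4 Wnt4βKO arrays and control replicate 4 far above every other array, so the controls enclosed most of the Wnt4βKO values. The lowest and the highest of the 7 arrays were 60.1-fold apart, and the controls alone 40.6-fold. With the scanner's processed signal scaled to the 75th percentile of each array, in place of quantile normalization, the range over the 7 arrays was 152-fold.

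Reg3b (A_51_P169671), the pancreatitis-associated protein, had log2 signals of 8.13, 11.30 and 12.58 across control replicates 2, 3 and 4. Its Wnt4βKO replicates 1 to 4 gave 7.54, 10.30, 9.82 and 10.48. Reg3g (A_51_P354126), the antibacterial lectin, gave 6.71, 8.74 and 9.93 in the same controls and 6.70, 7.98, 6.82 and 7.79 in the Wnt4βKO arrays. Both repeated the order of the controls seen for Reg3a, with replicate 2 lowest and replicate 4 highest, and in both Wnt4βKO replicate 1 was the lowest of all 7 arrays. The controls spanned 21.8-fold for Reg3b and 9.33-fold for Reg3g.

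Reg3d (also known for its similarity to the islet neogenesis-associated protein) was read by a pair of probes. Probe A_55_P2035742, which represents the gene because its mean signal was higher, had log2 signals of 11.22, 11.83 and 12.21 in the controls, in the order of replicates 2, 3 and 4, against 8.14, 10.96, 11.54 and 10.05 in Wnt4βKO replicates 1 to 4. Wnt4βKO replicate 3 exceeded control replicate 2 and the other 3 Wnt4βKO arrays lay below every control. Probe A_51_P397414 gave 8.90, 9.47 and 11.33 in the controls and 6.94, 9.23, 8.48 and 8.15 in the Wnt4βKO arrays. Over the 7 arrays the pair had a Pearson's r of 0.854, and the gap between them was not constant, from 0.88 to 3.05 on the log2 scale.

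Reg1 (A_51_P329811), pancreatic stone protein, was steady in the controls, with log2 signals of 13.49, 13.76 and 13.30 in replicates 2, 3 and 4, a range of 1.37-fold. In Wnt4βKO replicates 1 to 4 it was 11.71, 13.62, 13.56 and 12.46. Wnt4βKO replicates 2 and 3 lay among the controls and replicates 1 and 4 below them. Reg2 (A_51_P333549), its neighbour in the cluster, was less steady, at 11.69, 13.16 and 13.73 in the controls and 9.83, 12.80, 12.99 and 12.20 in the Wnt4βKO arrays. Wnt4βKO replicate 1 was the lowest array for both genes, and control replicate 2 was the lowest control for Reg2 but not for Reg1.

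**Figure D1:**
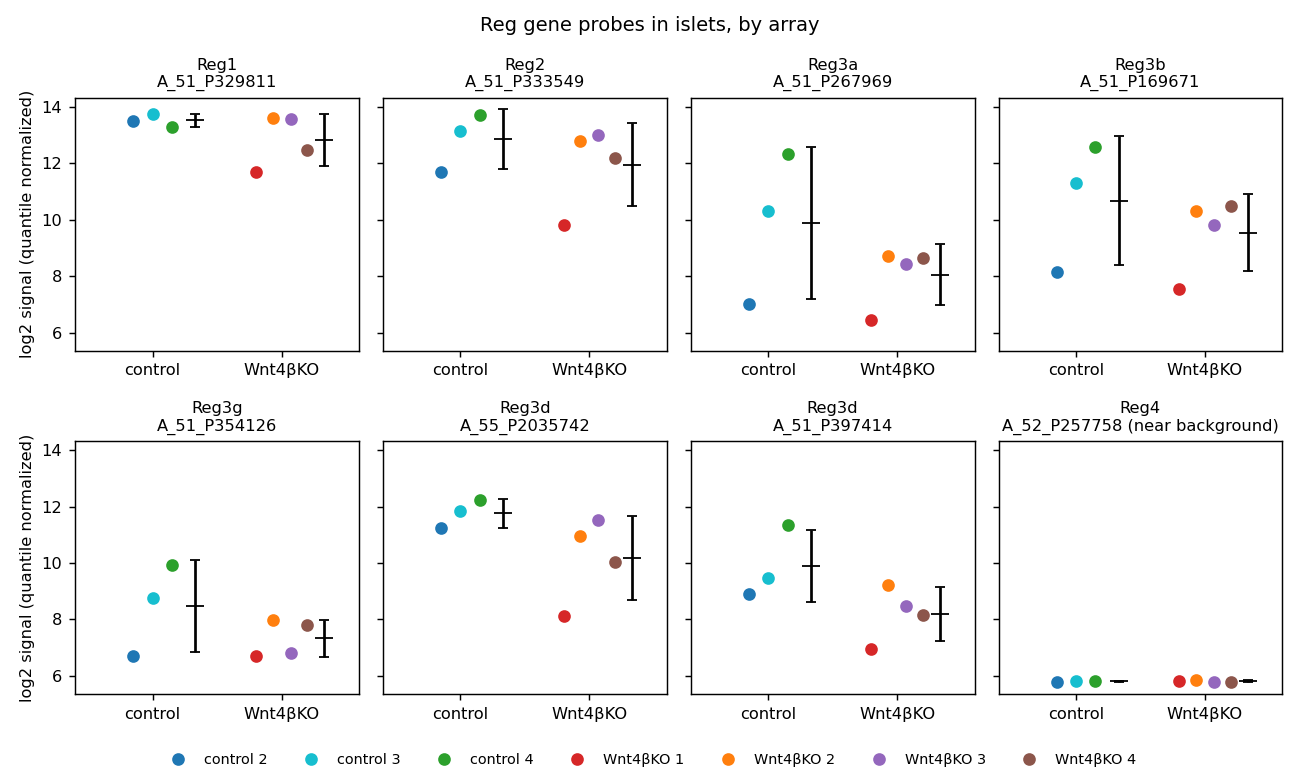
Log2 signal after quantile normalization (vertical axis) of the 8 Reg probes in the 3 control and 4 Wnt4βKO arrays. Each coloured point is 1 array, and the black bars are the mean and SD of the group. Control replicate 2 lies far below control replicate 4 for Reg3a (7.00 against 12.34), Reg3b and Reg3g, while the controls lie close together for Reg1. The groups overlap in every panel, and Reg4 is not well above background.

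Measured against all probes, this spread was large. The SD of the log2 signal over the 7 arrays had a median of 0.17 over the 26153 tested probes. It was 1.99 for Reg3a, which ranked 7 of 26153, 1.74 for Reg3b (rank 11), 1.38 for Reg3d (rank 20), 1.29 for Reg2 (rank 30), 1.21 for Reg3g (rank 41) and 0.76 for Reg1 (rank 195). Some acinar genes spread as widely. Of 35 measurable genes listed for acinar enzymes and secretory products, Serpini2 (SD 1.44), Erp27 (1.41) and Cuzd1 (1.37) ranked 18, 19 and 21. The median SD was 0.62 over these 35 genes and 1.34 over the 6 Reg genes. Among the 3 controls alone, Reg3a had the largest SD of all tested probes, 2.70, Reg3b ranked 3 and Reg3g ranked 9, whereas Reg1 ranked 7367. Serpini2, Erp27 and Cuzd1 ranked 291, 3594 and 10160 among the controls. Ranks moved with the scaling and with the arrays kept, in 8 alternatives chosen after the data were seen: from 4 to 49 for Reg3a, from 9 to 109 for Reg3b and from 137 to 5627 for Reg1. The last rank of each came from the processed signal at the 75th percentile. There the log2 range of Reg1 was 1.56, against 2.05 after quantile normalization, and that of Reg3a was 7.25, against 5.91.

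**Figure D2:**
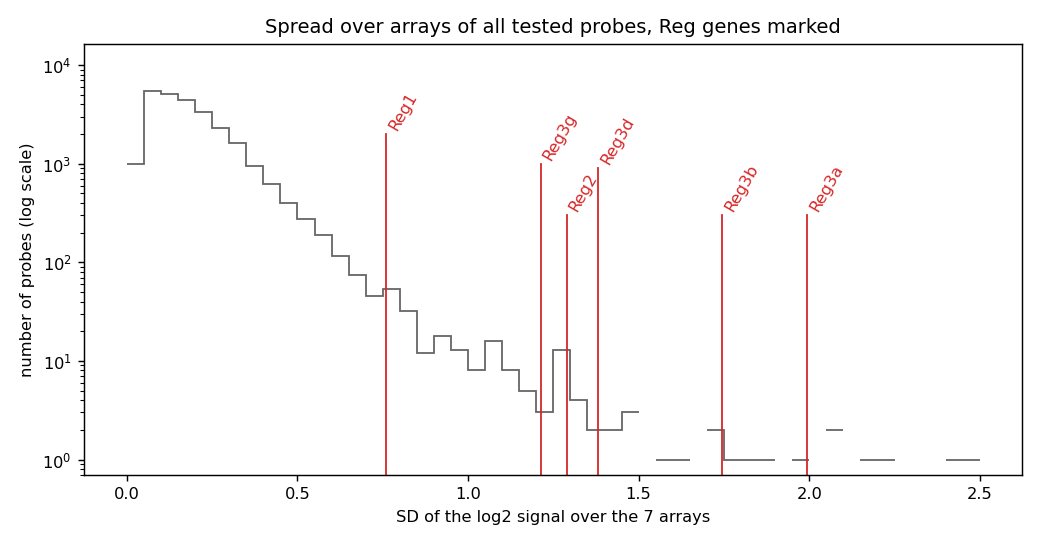
Number of tested probes (vertical log axis) by the SD of their log2 signal over the 7 arrays (horizontal axis, in steps of 0.05), as a grey outline that is open where no probe fell. Red lines mark 1 probe for each of 6 Reg genes, and their heights have no meaning. Reg3a (1.99) and Reg3b (1.74) lie in the far tail, and Reg1 (0.76) lies nearest to the bulk of the probes.

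The first comparison asked whether the Reg genes differed between Wnt4βKO and control islets. All 6 measured genes had lower means in the Wnt4βKO group, with a median log2 difference of -1.14 against 0.00 over all tested probes, and none passed the test. The counts were 0 of 6 at a Benjamini-Hochberg adjusted limma p of 0.05, where 0.0153% of all tested probes passed in either direction, and 0 of 6 at an unadjusted limma p of 0.05, where 3.75% of tested probes were lower. The groups overlapped for all 6 genes. Of the tested probes, 3.84% had every Wnt4βKO array below every control array. Since the 6 genes lie in 1 cluster and varied together, their shared direction is not 6 separate observations.

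Reg3a showed the largest difference of the 6 genes, -1.84 ± 1.20 (SE), which is 28.0% of the control level after conversion to the linear scale, with a 95% confidence interval from -4.64 to 0.97 and an adjusted limma p of 0.828. Reg3d followed with -1.58 ± 0.76 (SE, interval from -3.35 to 0.19, adjusted p 0.743). Its other probe gave -1.70 ± 0.69 (SE) with an unadjusted limma p of 0.0418 and an adjusted p of 0.688, and was the only Reg probe with an unadjusted p under 0.05. Reg3g differed by -1.14 ± 0.73 (SE, adjusted p 0.818), Reg3b by -1.13 ± 1.13 (SE, adjusted p 0.891), Reg2 by -0.90 ± 0.83 (SE, adjusted p 0.884) and Reg1 by -0.68 ± 0.46 (SE, adjusted p 0.837). The intervals of these genes include 0 and also differences of more than 1 on the log2 scale, so a lower level in Wnt4βKO islets was neither shown nor bounded closely. Leaving out control replicate 2 moved the median of the 6 differences to -1.94, leaving out control replicate 4 moved it to -0.54 and leaving out Wnt4βKO replicate 1 moved it to -0.69.

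The same differences were computed within each row of the slide. Control replicate 4 and Wnt4βKO replicates 1 and 2 sat in the first row of the slide, and control replicates 2 and 3 and Wnt4βKO replicates 3 and 4 in the second. The difference between groups for Reg3a was -4.77 within the first row and -0.13 within the second. For Reg3b these differences were -3.66 and 0.44, for Reg2 -2.41 and 0.17, for Reg3g -2.59 and -0.42, and for Reg3d -2.66 and -0.73. For Reg1 both rows gave nearly the same difference, -0.64 and -0.62. The single control of the first row is replicate 4, the array with the highest Reg3a, Reg3b, Reg3g, Reg2 and Reg3d signals, so row and array cannot be told apart and the within-row values have no test. With the row as a block in the fit the median over the 6 genes was -1.25.

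**Figure D3:**
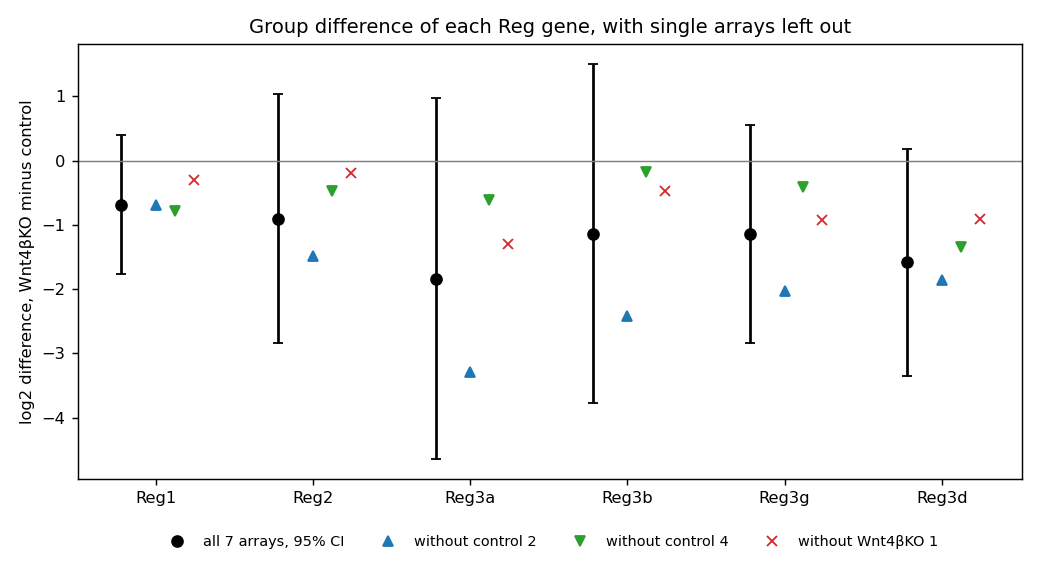
Log2 difference, Wnt4βKO minus control (vertical axis), for 6 Reg genes. Black points are the estimates from all 7 arrays with 95% confidence intervals from limma, and coloured marks are the estimates without control replicate 2, control replicate 4 or Wnt4βKO replicate 1. All 6 intervals include 0, and Reg3a moves from -1.84 to -3.30 without control replicate 2 and to -0.61 without control replicate 4.

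The second comparison set the Reg genes against the acinar RNA in each preparation. The acinar mean of an array was the mean log2 signal of the 35 measurable genes among 40 listed for acinar enzymes and secretory products. In control replicates 2, 3 and 4 it was 13.39, 13.28 and 13.36. In Wnt4βKO replicates 1 to 4 it was 11.87, 13.06, 12.96 and 12.29. Every Wnt4βKO array lay below every control, by 0.80 between the group means, with an exact permutation p of 0.0571 (two-sided), the smallest that 35 arrangements of 3 and 4 arrays allow. Of the 35 genes, 31 had lower means in Wnt4βKO islets, 0 passed the adjusted threshold and 15 were lower at an unadjusted limma p of 0.05, where 3.75% of tested probes were. Without Wnt4βKO replicate 1 the difference in the acinar mean was -0.57.

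The 5 acinar enzymes with the highest signals did not pass the test either. They lie at the top of the scale, where quantile normalization can compress differences, and Cela2a had the same value, 15.19, in all 3 controls. Their differences are therefore not a measure of the whole list, whose median over 35 genes was -0.68. Cela3b, an elastase, differed by -0.33 ± 0.13 (SE, adjusted limma p 0.688) and Cel, the carboxyl ester lipase, by -0.63 ± 0.31 (SE, adjusted p 0.750). Cela2a, another elastase, differed by -0.12 ± 0.12 (SE), Ctrb1, a chymotrypsinogen, by 0.18 ± 0.12 (SE) and Clps, the colipase, by 0.14 ± 0.14 (SE), with adjusted limma p-values of 0.887, 0.835 and 0.889. The lists of other cells in these preparations gave smaller shifts, with medians over their tested genes of -0.02 for 11 duct genes, -0.04 for 13 endothelial and stromal genes and 0.43 for 9 immune genes.

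By Pearson's r over all 7 arrays, Reg1 and Reg3d followed the acinar mean most closely. Reg3d is represented here by probe A_55_P2035742, and no correlation of its other probe with the acinar mean was computed. Over the 7 arrays Reg1 had a Pearson's r of 0.929 with it (exact permutation p 0.0333, adjusted 0.0652) and a Spearman's rho of 0.464 (exact permutation p 0.302, adjusted 0.391). Reg3d had an r of 0.934 (exact permutation p 0.0115, adjusted 0.0403) and a rho of 0.714 (exact permutation p 0.0881, adjusted 0.185). Without the 2 arrays farthest from the median acinar mean, Wnt4βKO replicates 1 and 4, r was -0.355 for Reg1 and 0.412 for Reg3d, so both relations rest on those 2 arrays. For Reg2 r was 0.757 (exact permutation p 0.0857, adjusted 0.129), and -0.138 without the same arrays. The remaining genes gave r of 0.548 for Reg3a, 0.500 for Reg3b and 0.451 for Reg3g, with exact permutation p-values of 0.153, 0.223 and 0.285. Without the same arrays their r was 0.278, 0.118 and 0.399. Spearman's rho over the 7 arrays was 0.429 for Reg2, Reg3a and Reg3g, close to that of Reg1, and 0.357 for Reg3b. Adjustment was over the 21 relations computed, 6 with the acinar mean and 15 between Reg genes. Single groups and slide rows hold at most 4 arrays, too few for a correlation within them.

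**Figure D4:**
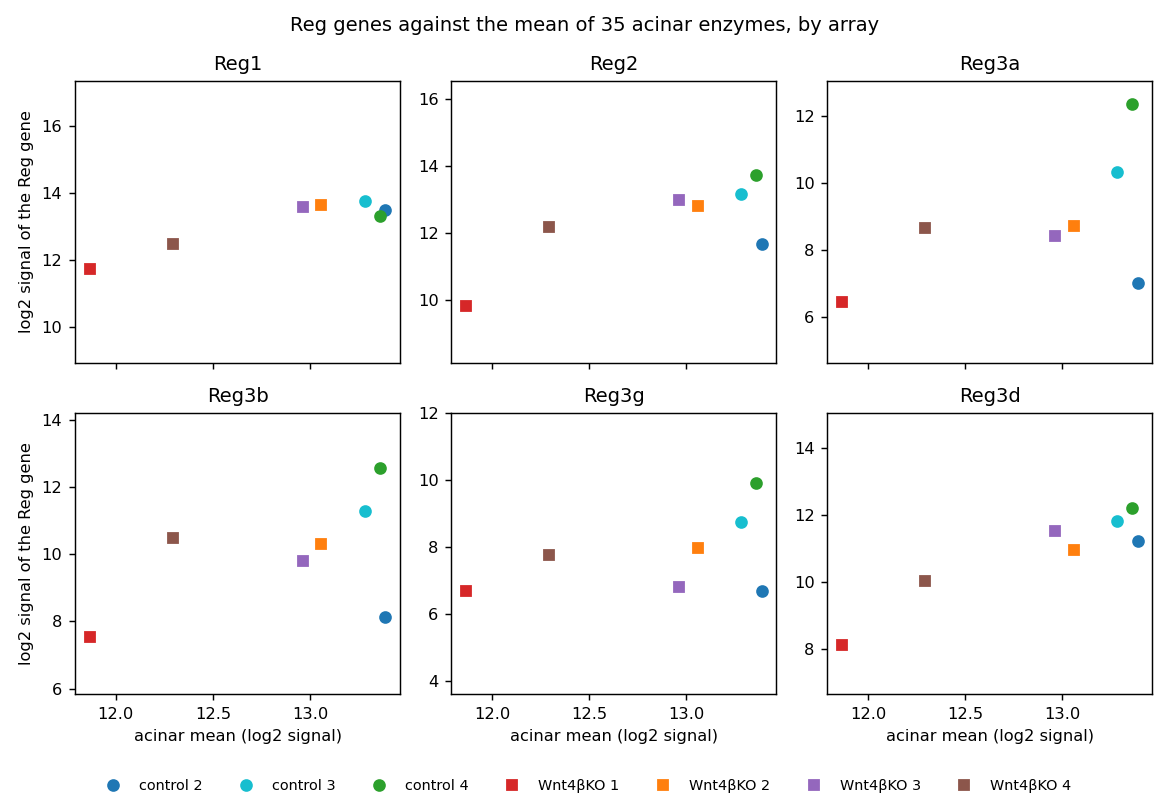
Log2 signal of each of 6 Reg genes (vertical axis, each panel spanning the same number of log2 units) against the acinar mean of the array (horizontal axis, mean log2 signal of 35 acinar genes). Circles are the 3 control arrays and squares the 4 Wnt4βKO arrays. Reg1 and Reg3d lie low in Wnt4βKO replicates 1 and 4, where the acinar mean is 11.87 and 12.29, while Reg3a, Reg3b and Reg3g differ widely among 3 controls whose acinar means lie between 13.28 and 13.39.

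A fit across all tested probes with group and the acinar mean as terms gave the slope of each gene, its change in log2 signal per unit of the acinar mean. With group in the fit the slope is a relation within groups. The acinar mean had an SD of 0.05 in the controls and 0.57 in the Wnt4βKO arrays, so the slopes rest mostly on those 4 arrays. The slope of Reg1 was 1.60 ± 0.20 (SE, unadjusted limma p 0.000133, adjusted 0.308), that of Reg3d 2.45 ± 0.48 (SE, unadjusted p 0.00182, adjusted 0.757) and that of Reg2 2.27 ± 0.77 (SE, unadjusted p 0.0243, adjusted close to 1). Thus 3 of the 6 genes had a positive slope at an unadjusted limma p of 0.05, against 1.88% of all tested probes, and 0 of the 26153 probes passed after adjustment, with 1185 at an unadjusted p under 0.05 in either direction. The count of 3 takes 1 probe for each gene. The other Reg3d probe, A_51_P397414, had a smaller slope, 1.58 ± 0.77 (SE, unadjusted limma p 0.0833), so the result for Reg3d depends on the probe. The slopes of Reg3a (1.37 ± 1.63, SE), Reg3b (1.56 ± 1.50, SE) and Reg3g (0.37 ± 1.03, SE) had unadjusted limma p-values of 0.430, 0.334 and 0.728. Without Wnt4βKO replicate 1 these 3 slopes were below 0, at -0.40, -0.85 and -0.56, and those of Reg1, Reg2 and Reg3d were 1.48, 0.75 and 1.48.

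With the acinar mean in the fit, the differences between groups were no longer all below 0. Reg1 was higher in Wnt4βKO islets by 0.59 ± 0.21 (SE, unadjusted limma p 0.0305, adjusted close to 1), and was the only one of the 6 genes with an unadjusted p under 0.05 there, where 1.08% of tested probes were higher at that threshold. The differences were 0.90 ± 0.84 (SE) for Reg2, 0.37 ± 0.52 (SE) for Reg3d, 0.11 ± 1.64 (SE) for Reg3b, -0.74 ± 1.79 (SE) for Reg3a and -0.84 ± 1.13 (SE) for Reg3g. The other Reg3d probe, A_51_P397414, had the opposite sign, -0.44 ± 0.84 (SE). Group and acinar mean moved together in these arrays. Every Wnt4βKO acinar mean lay below every control one, so this fit compares the groups at acinar means that they do not share. The part of group or acinar mean in the Reg differences was not tested further.

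Subtracting the acinar mean from each gene, array by array, left differences with exact permutation p-values well above 0.0571, the smallest that this design allows. For Reg3a the remainder was -3.46 ± 2.72 (SD) over the 3 control arrays and -4.50 ± 0.73 (SD) over the 4 Wnt4βKO arrays, a difference of -1.04 with an exact permutation p of 0.514 (two-sided). The difference was -0.79 for Reg3d (exact permutation p 0.286), -0.34 for Reg3g and for Reg3b (exact permutation p 0.686 and 0.857), -0.11 for Reg2 (exact permutation p 0.743) and 0.11 for Reg1 (exact permutation p 0.629). The mean of the 6 Reg genes minus the acinar mean was -3.68, -1.76 and -1.01 for control replicates 2, 3 and 4, against -3.48, -2.33, -2.44 and -2.02 for Wnt4βKO replicates 1 to 4. The group means differed by -0.42, and by 0.15 without control replicate 4 and -1.19 without control replicate 2. Control replicate 2 thus had the highest acinar mean of the 7 arrays and the lowest Reg mean relative to it.

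Among themselves the Reg genes formed no single pattern, although all 15 pairs had a Pearson's r above 0 over the 7 arrays, from 0.327 for Reg1 and Reg3g to 0.971 for Reg3a and Reg3b. Reg3a, Reg3b and Reg3g were the tightest group. Reg3a and Reg3b had a rho of 0.964 and Reg3a and Reg3g, with an r of 0.958, ranked the 7 arrays in the same order. The exact permutation p-values of r were 0.000794 and 0.000397, adjusted to 0.00833 in both cases. In the processed signal, control replicate 2 and Wnt4βKO replicate 1 changed places for Reg3g, so the shared order does not hold there. For Reg3b and Reg3g r was 0.921 and rho 0.964, with an exact permutation p of r of 0.00119, adjusted to 0.00833. Without the 2 arrays farthest from the median, control replicate 4 and Wnt4βKO replicate 1, r was still 0.957, 0.893 and 0.874 for these pairs. The coding sequences of the family are related, and how far 1 transcript can bind the probe of another was not tested.

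The relation of Reg3d to this group, read by probe A_55_P2035742, depended on the arrays kept. Its r with Reg3a was 0.721, and 0.287 without control replicate 4 and Wnt4βKO replicate 1. No correlation of the other Reg3d probe, A_51_P397414, with these genes was computed. That probe had a larger SD over the controls, 1.27 against 0.50. Reg2 stood between both patterns, with an r of 0.924 with Reg3d, 0.889 with Reg3b and 0.843 with Reg3a (exact permutation p 0.0206, 0.00437 and 0.00159, adjusted 0.0552, 0.0183 and 0.00833), and values of 0.969, 0.731 and 0.834 without control replicate 2 and Wnt4βKO replicate 1. Reg1 had an r of 0.912 with Reg3d (exact permutation p 0.0341, adjusted 0.0652), which was -0.380 without Wnt4βKO replicates 1 and 4.

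Markers of other cells moved in part with Reg3a, Reg3b and Reg3g. The mean of 13 endothelial and stromal markers was 7.28, 7.82 and 8.06 for control replicates 2, 3 and 4, against 7.11, 7.56, 7.81 and 8.12 for Wnt4βKO replicates 1 to 4, so that the arrays lowest for these Reg genes, control replicate 2 and Wnt4βKO replicate 1, were also lowest for it. Wnt4βKO replicate 4 had the highest stromal mean and only a moderate Reg3a signal. The mean of 9 immune markers lay between 8.07 and 8.41 on 6 arrays and was 9.28 in Wnt4βKO replicate 4, whose Reg3b signal was the highest of its group and whose Reg3a and Reg3g signals were not. The mean of 11 duct markers lay between 8.04 and 8.06 in the controls and between 7.85 and 8.04 in the Wnt4βKO arrays. Of 10 intestinal markers 3 were measurable, and Lgr5, Olfm4, Muc2 and both Cdx genes were not well above background on enough arrays to be tested. The part of these cells in the Reg values was not tested.

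Because Reg genes are known targets of cytokine signals, the genes of that pathway were read as well. Of 27 genes listed for IL-6 and IL-22 family signalling, 18 were measurable, and Il6, Il11, Il22, Lif, Osm and Il22ra1 were among the 9 that were not. None passed the adjusted threshold, and the median difference over the 18 was -0.10. Stat3, the transcription factor at the end of the pathway, had log2 signals of 10.32, 9.97 and 10.17 in the controls, again as replicates 2, 3 and 4, and of 10.07, 10.28, 10.40 and 10.77 in Wnt4βKO replicates 1 to 4, a difference of 0.22 ± 0.17 (SE, adjusted limma p 0.857). Cish, a cytokine-induced inhibitor of JAK-STAT signalling, was the only one of the 18 with an unadjusted limma p under 0.05, at -0.88 ± 0.14 (SE, adjusted p 0.388). Of all 26153 tested probes, 1835 passed that threshold in either direction and 3.75% were lower, so 1 of 18 is close to the share of all probes. The 4 Wnt4βKO arrays of Cish, between 6.85 and 7.36, lay below its 3 controls, between 7.74 and 8.12, as was so for 3.84% of tested probes.

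Of 23 STAT3 and acute-phase target genes, 17 were measurable, none passed the adjusted threshold and 4 were lower at an unadjusted limma p of 0.05, where 3.75% of tested probes were lower. These were Nupr1, a stress gene of the exocrine pancreas (-1.33 ± 0.45, SE), the transcription factor Cebpd (-1.05 ± 0.34, SE), the chaperone clusterin, Clu (-0.54 ± 0.17, SE), and Myc (-0.27 ± 0.11, SE), with adjusted limma p-values from 0.612 to 0.686. The median over the 17 genes was -0.04. Socs3, the feedback inhibitor that STAT3 induces, differed by -0.10 ± 0.25 (SE, adjusted p 0.965), and was 7.07 in control replicate 2, 7.79 in control replicate 3 and 7.58 in control replicate 4. In Wnt4βKO replicates 1 to 4 it was 6.84, 7.34, 7.53 and 7.81, so the highest Socs3 signal was in Wnt4βKO replicate 4. Extl3, a proposed receptor of Reg proteins, differed by -0.01 ± 0.12 (SE, adjusted p 0.996), with all 7 arrays between 7.88 and 8.38.

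All 8 listed acinar transcription factors were measurable, and their median difference was -0.28. Ptf1a, the factor that sets acinar identity, had log2 signals of 7.69, 8.37 and 7.65 in the controls and 6.10, 6.91, 7.19 and 6.40 in Wnt4βKO replicates 1 to 4, without overlap, a difference of -1.25 ± 0.29 (SE, unadjusted limma p 0.00341, adjusted 0.480). Of all tested probes, 3.84% were likewise lower without overlap. Rbpjl, the partner of Ptf1a in the adult gland, differed by -1.47 ± 0.46 (SE, adjusted p 0.608) and Gata4 by -0.24 ± 0.09 (SE, adjusted p 0.675). Bhlha15, which encodes MIST1 of the secretory programme, differed by -0.38 ± 0.28 (SE, adjusted p 0.854).

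The genes whose pattern over the 7 arrays was most like that of each Reg gene were taken by Pearson's r from 13633 other genes, as a description. For Reg1 these were Erbb2 (r 0.993), Gmpr2 (0.983) and Efemp1 (0.980), whose log2 signals ranged over only 0.17 to 0.35, against 2.05 for Reg1. For Reg3d they were Csrp2 (0.985), Slc30a2 (0.978) and the pancreatic kallikrein Klk1 (0.971), which is on the acinar list and ranged over 2.95. Reg2 was most like Tagln3, Prkci and Hpn, with r from 0.970 to 0.973. Reg3a was most like Spry1 (0.990), Ccn2 (0.976) and Mdfi (0.970), Reg3b like Akap12 (0.983) and Nrn1 (0.982), and Reg3g like Mkln1 (0.979), Celsr1 (0.967) and Chl1 (0.967). With 7 arrays such values are common by number: between 47 and 98 of the 13633 genes had an r above 0.9 with a given Reg gene.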

How the data were processed

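Islet RNA of 3 control and 4 Wnt4βKO samples was analysed. Cy3-labelled cRNA was made from 50 ng of RNA per sample, per the labels. Each sample has 1 scanner file deposited by the authors, whose header names Agilent Feature Extraction 12.0.1.1 (the submitters' processing notes name version 9.1). The deposited intensities are spot signals from the scanner software on a linear scale, which the authors had not normalized between arrays. Per the study's methods, 1 control sample had been left out because it did not pass quality tests. The authors' normexp correction and quantile normalization in limma were followed. Signal was taken as the median spot intensity with its median local background, since no mean spot intensity was in these files.

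All spots were corrected by normexp (offset 50), control spots were dropped, flagged spots were set to missing (none was a Reg spot), log2 values were quantile normalized and values of repeated spots were averaged. Tests covered 26153 of 56605 probes, those well above background on 3 or more of 7 arrays. Group differences were fitted in limma 3.58.1 (R 4.3.3) by lmFit and eBayes as two-sided tests, and p-values were adjusted by Benjamini-Hochberg over all tested probes. A gene with several probes was represented by the probe of highest mean signal. Exact permutation tests and correlations used Python 3.11.15 with scipy 1.17.1, and a two-sided permutation p is 2 times the smaller tail. Fold changes from arrays can be compressed at both ends of the scale, by the offset for dim probes and by quantile normalization for the most intense ones, and the number of arrays limits precision.

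Probes were named by matching accessions, without versions, to RefSeq genes of GRCm38.p6, which named 58.3% of them. The array grid was made on another build, so no probe coordinates are given. Named genes were the 7 Reg genes, the 5 acinar enzymes with the highest mean signal, the 3 genes most like each Reg gene, Wnt4, and from the signalling, target and acinar transcription factor lists those with an unadjusted p under 0.05 and Stat3, Socs3, Extl3, Ptf1a and Bhlha15. Not every gene that this rule names is reported here. The members, the gene lists and the motifs were chosen with earlier results of these data known.

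Alternatives for the signal were an offset of 0, uncorrected signal, cyclic loess, median scaling and processed signal divided by its 75th percentile. The others were no filter on dim probes, a filter over all 7 arrays, array weights, a trended and robust variance, blocks for the replicate number and the slide row, the mean over probes, an acinar mean over 22 dimmer enzymes and each array left out in turn. The fits were tested on simulated data in which known changes had been placed.

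A value table deposited by the authors holds log2 values of 36693 probes, whose scale, centring and direction are not stated. Its column medians lay between 4.96 and 4.97. After centring each probe, a column's r with its own scanner array was between -0.21 and 0.15, and 2 of 7 columns matched their own array best, so it was not used.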

Additional observations from a re-analysis of the deposited data

Results flagged for a closer look

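Among 17 sets of the 4 Wnt4βKO arrays that were examined for 1 array far from the others (each tested Reg probe, each Reg gene minus the acinar mean, and the means over lists), 2 stood out, and chance marks about 1 set in 20. In the log2 signal of Reg3a, Wnt4βKO replicate 1 (6.43) lay apart from the other 3 arrays (8.41 to 8.71), with a gap of 0.871 of the range of the group. In Reg2 minus the acinar mean, the same array (-2.04) lay apart from the other 3 (-0.25 to 0.02), with a gap of 0.865 of the range. The groups of 3 controls were too small to be examined in this way, and the cause of either gap was not tested.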

How the results depend on the processing

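The differences of all 6 Reg genes stayed below 0, and 0 of them passed the adjusted threshold, in all 19 alternatives. Some of these could not change a sign. The filters on dim probes and the trended and robust variance left the differences as they were, and the mean over probes changed only Reg3d. The median of the 6 differences was -1.14 and lay between -1.94 (without control replicate 2) and -0.54 (without control replicate 4). Over all tested probes 4 passed. This count was 7 with the processed signal at the 75th percentile, 2 with the mean over probes of a gene and between 2 and 5 with 1 array left out (2 without control replicate 2, 3 or 4 or Wnt4βKO replicate 3). With the acinar mean as a term, Reg3b reversed from 0.11 to -0.17 with the processed signal, -0.029 with cyclic loess and -0.12 with array weights, and Reg3d from 0.37 to -0.034 with the mean over probes. With 1 array left out these differences lay between -2.05 and 0.43 for Reg3a, between -1.05 and 1.01 for Reg3b and between -0.058 and 1.02 for Reg3d, and the slopes on the acinar mean between -0.40 and 1.75 for Reg3a, between -0.85 and 2.09 for Reg3b and between -0.56 and 0.87 for Reg3g. The cause of these moves was not tested. With an acinar mean over the 22 dimmer enzymes, the slope of Reg1 was 1.27 and that of Reg3d 1.98.

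The labels give both groups replicate numbers 2, 3 and 4, and per the study's methods the controls were littermates. The deviations of same-numbered arrays had r of -0.13, 0.23 and -0.01. Only for replicate 3 was the same-numbered array the best match in the other group. So few r cannot settle whether a shared number marks a litter or a batch. With the replicate number as a block the median over the Reg genes was -0.69, 0 Reg genes and 2 probes in all passed, and with the acinar mean as a further term Reg3a was at 1.46 and Reg3g at 0.45, both reversed.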
